A study of Mus musculus with 1 sample.

Results

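The mRNA decay and 3′ processing machinery holds 54 genes whose products make, shorten or destroy poly(A) tails and the mRNAs that carry them. The members were taken by gene symbol and cover 17 cleavage and polyadenylation factors, 3 deadenylase subunits outside the Ccr4-Not complex, 10 factors of decapping and 5′ decay, 11 subunits of the RNA exosome, 6 factors of nonsense-mediated decay (NMD) and 7 factors that recruit deadenylases. All 54 symbols were found in the GENCODE vM21 annotation. Of these genes, 53 had at least 1 transcript with a measured tail, out of 12816 nuclear genes with one. The minimum of 10 transcripts that the study set for a gene value was met by 48 members, out of 7146 nuclear genes.

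Poly(A) tails were measured in wild-type cells of the ICR strain 24 h after mouse embryonic stem cells had been switched to epiblast-like cell (EpiLC) conditions. EpiLCs are an in vitro model of the formative state that follows naïve pluripotency. The cells were grown in N2B27 medium with activin A, bFGF and KSR. The method, PAIso-seq, copies whole mRNAs with their tails into circular cDNA and reads each molecule in repeated passes on the PacBio platform. There was 1 group, made of 1 sample with 2 barcoded replicates. The replicates are numbered by barcode, because the labels do not say which barcode marks which, and although the study calls them independent replicates, the sources used here do not say that they came from separate cultures, so their spread may be technical. Cells lacking the deadenylase Cnot8, the other arm of the study, were not analysed here. With 1 group no test between conditions was possible, and every value below is a description of these 2 libraries.

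A poly(A) tail is added in the nucleus after the cleavage and polyadenylation complex has cut the nascent transcript, and poly(A)-binding proteins coat it. In the cytoplasm deadenylases shorten the tail, after which the mRNA is decapped and digested from its 5′ end or degraded from its 3′ end by the exosome. Short tails can also gain uridines, which are read as T in cDNA and are known to promote decay. Adaptors such as the Pumilio, Tob and Zfp36 families bring deadenylases to chosen mRNAs, and the NMD pathway removes mRNAs with premature stop codons.

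Example tails are shown first, as read from the cDNA, 5′ to 3′, with every base other than A in capitals. The first 4 are the tails nearest to the median length of their gene, with 48, 57, 63 and 142 nt. They come from 3 genes with short tails in both replicates and from Sympk, the gene with the longest.
Dis3, replicate 2: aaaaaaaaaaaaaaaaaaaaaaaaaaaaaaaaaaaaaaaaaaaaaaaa
Xrn2, replicate 2: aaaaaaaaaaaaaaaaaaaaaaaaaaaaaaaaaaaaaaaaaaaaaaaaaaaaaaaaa
Pum2, replicate 2: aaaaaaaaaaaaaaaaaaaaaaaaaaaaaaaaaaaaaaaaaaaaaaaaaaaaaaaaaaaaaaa
Sympk, replicate 2: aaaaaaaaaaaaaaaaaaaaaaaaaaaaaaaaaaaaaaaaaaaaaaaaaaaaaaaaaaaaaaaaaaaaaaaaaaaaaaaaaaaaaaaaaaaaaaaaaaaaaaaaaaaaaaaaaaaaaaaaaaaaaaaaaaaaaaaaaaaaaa
The next set holds short tails of 10 to 28 nt with a base other than A. They were picked for such a base and show terminal T residues of Dis3 and Xrn2 transcripts, with 1 tail each of Pcf11 and Pum2. Among tails of 6 to 30 nt, 16.0% ended in T in the machinery and 15.2% in all nuclear transcripts. The Xrn2 tail ending in TTaaT occurred in 2 identical reads of replicate 2.
Dis3, replicate 1: aaaaaaaaaT
Dis3, replicate 2: aaaaaaaaaaaaaaTT
Dis3, replicate 2: aaaaaaaaaaaaaaaaaaaaTaaaaT
Xrn2, replicate 1: aaaaaaaaaaaaaaaaTT
Xrn2, replicate 2: aaaaaaaaaaaaaaaaT
Xrn2, replicate 2: aaaaaaaaaaaaaaaaaaaaaaaTTaaT
Pcf11, replicate 1: aaaaaaaaaaT
Pum2, replicate 1: aaaaaaaaaaaaaTT

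Replicate 1 held 246316 nuclear transcripts read in at least 7 passes and replicate 2 held 455660. Of these, 1165 transcripts (0.473%, 95% Wilson interval 0.447% to 0.501%) and 2221 transcripts (0.487%, 0.468% to 0.508%) belonged to the decay and 3′ processing genes. Intervals cover counting error only, since the reads have no molecular identifiers. All 8 formative and all 5 shared pluripotency markers were detected, as were 7 of 8 naïve markers. Markers of primitive endoderm, trophoblast and fibroblasts gave 1, 6 and 2 transcripts in all.

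Transcripts of the decay and 3′ processing genes had slightly shorter tails than nuclear transcripts as a whole. Their median tail was 85 nt (exact 95% interval 82 to 88), against 91 nt for all nuclear transcripts in each replicate. Replicate 1 gave 89 nt (82 to 94), an interval that held 91 nt, and replicate 2 gave 84 nt (80 to 87). Tails of 6 to 30 nt made up 11.8% of the members' transcripts (10.8% to 12.9%) and 8.25% of all nuclear transcripts, and the members were higher in both replicates, with 13.6% and 10.9% against 8.62% and 8.05%. Very short tails of 1 to 5 nt made up 3.34% of the members' transcripts and 2.32% of all. This difference came from replicate 2, with 4.28% against 2.75%, whereas replicate 1 gave 1.55% against 1.52%. Tails over 90 nt were found in 47.1% of the members' transcripts and in 50.6% of all.

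For single genes, the gene tail is the geometric mean of the tail lengths over the transcripts of the gene. The median gene tail was 72.0 nt over the 48 members and 76.4 nt over all 7146 genes, a difference of -4.38 nt. The replicates gave -4.51 and -8.89 nt (mean -6.70 ± 3.10 nt, SD, n = 2). Genes with long mRNAs had shorter tails in these cells (Spearman rho -0.390 between gene tail and longest annotated transcript, across 7146 genes, which are not independent replicates), and the members had longer mRNAs, with a median of 4414 nt against 3252.5 nt. Against genes of the same decile of transcript length, the median difference of the members was -1.26 nt. With tails of 1 to 5 nt left out, the difference of the medians from all genes was -1.65 nt. With the median over transcripts in place of the geometric mean, the direction turned, and the members were 1.5 nt above all genes.

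A gene tail below 75 nt, the boundary between short and long tails in the study, was found for 27 of 48 members (56.25%), beside 47.4% of all genes. For 36 members both replicates reached 10 transcripts, and 14 stayed under the median of all genes in both (38.9%, background 33.4%) and 8 lay above it in both (22.2%, background 35.7%). The other 14 changed sides between replicates. Below the lower quartile in both replicates were 5 members (13.9%, background 11.4%), namely Pcf11, Cpsf6, Xrn2, Dis3 and Pum2. Above the upper quartile in both were 2 members (5.56%, background 14.0%), Sympk and Ddx6. The share below the lower quartile was near that of all genes. The quartiles of the members were 62.9 and 81.2 nt, and those of all genes 62.4 and 88.6 nt.

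**Figure D1:**
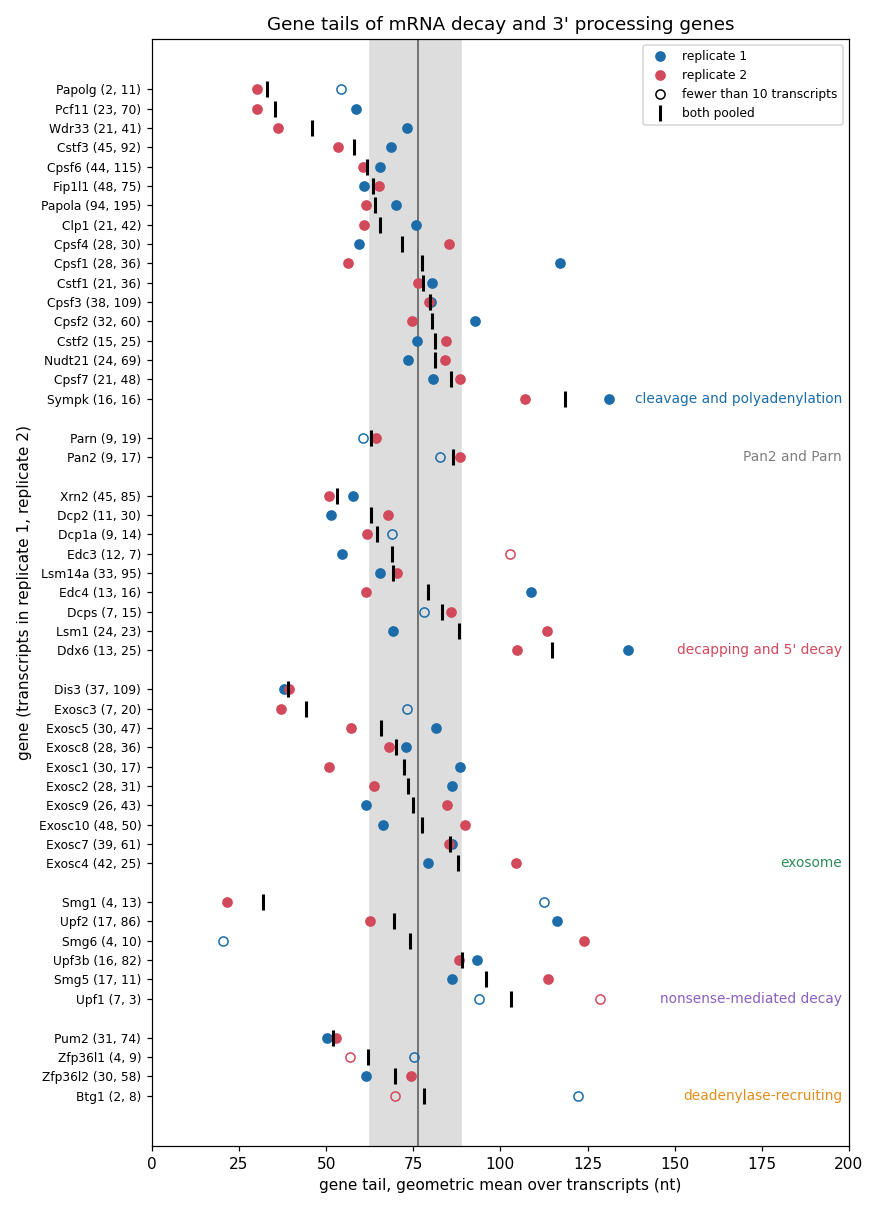
Gene tail in nt (x axis) of the 48 genes with at least 10 transcripts, by functional group, with the number of transcripts in replicate 1 and replicate 2 after each name. Filled circles are replicates with at least 10 transcripts, open circles those with fewer, and black ticks both replicates pooled; the grey band spans the quartiles of all 7146 genes (62.4 to 88.6 nt) and the line is their median (76.4 nt). Among genes with filled circles in both replicates, Dis3, Pum2, Xrn2 and Pcf11 lie left of the band in both, and Sympk and Ddx6 lie right of it in both.

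All 17 cleavage and polyadenylation factors had enough transcripts. Their gene tails ran from 33.0 nt for Papolg to 118 nt for Sympk, around a median of 71.6 nt. This was 4.73 nt below that of all genes, with differences of -3.41 and -11.7 nt in replicates 1 and 2 (mean -7.54 ± 5.84 nt). Below the all-gene median in both replicates were 7 of 16 genes (background 33.4%), and 3 were above it in both (background 35.7%).

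Pcf11 (chr7:92643543-92669934, GRCm38), a subunit of cleavage factor II that couples cleavage to transcription termination, had a gene tail of 35.4 nt over 93 transcripts. It measured 58.6 and 30.0 nt in replicates 1 and 2 (mean 44.3 ± 20.2 nt), so the size of the difference from other genes rested on replicate 2. Tails of 1 to 5 nt made up 13 of its 93 transcripts (14.0%, 8.35% to 22.5%), and 11 of the 13 came from replicate 2. Without them the gene tail was 59.4 nt. The difference from all genes, -41.0 nt, was -10.9 nt with tails of at least 15 nt. Its partner in cleavage factor II, the RNA kinase Clp1, had 65.4 nt, with 75.7 and 60.8 nt in the replicates and no tail of 1 to 5 nt.

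Sympk (chr7:19024377-19054618), the symplekin scaffold that holds cleavage and polyadenylation factors together, had the longest gene tail of the complex at 118 nt over 32 transcripts. The replicates gave 131 and 107 nt (mean 119 ± 16.99 nt), and both exceeded the upper quartile of all genes. Of its transcripts, 25 of 32 (78.1%) had tails over 90 nt and none had a tail of 6 to 30 nt, a count of 0 that allows a share of up to 9.38% (3 counts of the total). The median over its transcripts was 137 nt (99 to 164).

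Papola (chr12:105784694-105838944), the canonical nuclear poly(A) polymerase, had a gene tail of 64.0 nt over 289 transcripts, with 70.1 and 61.3 nt in the replicates (mean 65.7 ± 6.22 nt). Both replicates were below the all-gene medians of 78.0 and 76.8 nt. Its paralog Papolg had 33.0 nt, but over 13 transcripts, of which 2 came from replicate 1. Cpsf6 (chr10:117344673-117380015), a subunit of cleavage factor I that binds UGUA elements with Nudt21, had 61.8 nt over 159 transcripts, with 65.4 and 60.5 nt in the replicates (mean 63.0 ± 3.43 nt). Its value depended on very short tails: 11 of 159 transcripts (6.92%) had 1 to 5 nt, 10 of them in replicate 2, and without these it was 81.3 nt, 0.148 nt above all genes counted the same way.

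By subcomplex, transcripts of the CPSF subunits (Cpsf1 to Cpsf4, Fip1l1 and Wdr33), which recognise the AAUAAA signal and cut the RNA, had a median tail of 86 nt (81 to 93). CstF transcripts, whose products bind the downstream GU-rich element, had a median of 84.5 nt (72 to 96), and cleavage factor I transcripts (Cpsf6, Cpsf7 and Nudt21) 93 nt (81 to 99). Cleavage factor II transcripts (Pcf11 and Clp1) had the lowest median, 68 nt (49 to 84), at 81 and 58.5 nt in replicates 1 and 2. Its interval overlapped those of the others. This grouping was chosen after the values were seen. Within CPSF, the endonuclease Cpsf3 gave almost the same gene tail in both replicates, 80.04 and 79.61 nt, over 147 transcripts, whereas Cpsf1 gave 117 and 56.2 nt over 64.

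The deadenylases outside Ccr4-Not were sparsely covered. The Pan2-Pan3 complex trims long tails, and Parn is a poly(A)-specific ribonuclease that also matures small RNAs. Pan2 (chr10:128303335-128321358) had a gene tail of 86.3 nt over 26 transcripts, with 82.7 and 88.3 nt in the replicates. Parn (chr16:13537960-13668170) had 63.0 nt over 28 transcripts, with 60.5 and 64.2 nt. In both genes replicate 1 rested on 9 transcripts. The 8 transcripts of Pan3 (chr5:147430161-147548502), a count just under the minimum of 10, had a geometric mean of 67.0 nt, while Btg1 and Upf1, just inside it with 10 transcripts each, had 78.0 and 103 nt.

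Among the 9 decapping and 5′ decay factors with at least 10 transcripts, gene tails ran from 53.1 nt for Xrn2 to 115 nt for Ddx6. Their median of 69.1 nt was 7.31 nt below that of all genes, with differences of -12.7 and -7.69 nt in the replicates (mean -10.2 ± 3.53 nt). Against genes of the same transcript length the difference was 0.640 nt, on the other side of 0. Of 6 genes covered by at least 10 transcripts per replicate, 3 were below the all-gene median in both (background 33.4%) and 1 was above it in both (background 35.7%).

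Xrn2 (chr2:147012996-147078000), the nuclear 5′ to 3′ exonuclease of transcription termination, had a gene tail of 53.1 nt over 130 transcripts, with 57.6 and 50.8 nt in the replicates (mean 54.2 ± 4.80 nt). Both replicates were below the lower quartile of all genes. Its median tail was 57.5 nt (48 to 71), and 30 of 130 transcripts (23.1%, 16.7% to 31.03%) had tails of 6 to 30 nt, against 8.25% of all nuclear transcripts. Its cytoplasmic counterpart Xrn1, which digests decapped mRNA, gave 7 transcripts with a median of 183 nt, too few for a gene value. Without Xrn2, the transcripts of this group had a median tail of 91.5 nt (84 to 101).

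Ddx6 (chr9:44604892-44640731), the DEAD-box helicase that links Ccr4-Not to decapping and translational repression, stood at the other end with 115 nt over 38 transcripts. The replicates gave 137 and 105 nt (mean 121 ± 22.4 nt), both above the upper quartile of all genes. Of its transcripts, 33 of 38 (86.8%) had tails over 90 nt, and the median was 140 nt (119 to 152). The decapping enzyme itself, Dcp2, had 62.8 nt over 41 transcripts, with 51.2 and 67.7 nt. Its activators ran from 64.5 nt for Dcp1a to 79.3 nt for Edc4, and Lsm1, of the Lsm1-7 ring that binds short-tailed mRNA, had 88.0 nt. Edc4 and Lsm1 changed sides between replicates, with 109 and 61.3 nt for Edc4 and 69.1 and 113 nt for Lsm1.

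**Figure D2:**
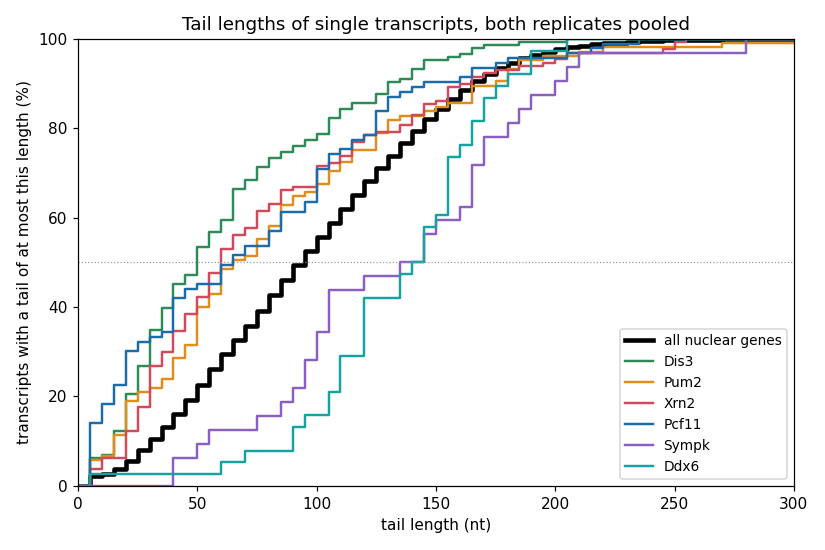
Share of transcripts (y axis, %) with a tail of at most the length on the x axis (nt, in steps of 5 nt), both replicates pooled, for all nuclear genes (thick line) and 6 genes of the machinery that lay beyond a quartile. Dis3, Xrn2, Pum2 and Pcf11 lie left of all nuclear genes up to 100 nt, with medians of 47, 57.5, 63 and 62 nt, and Sympk and Ddx6 lie right of them from 20 to 150 nt, with medians of 137 and 140 nt; the dotted line marks 50%.

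Within the exosome, transcripts of the catalytic subunit Dis3 had a shorter median tail than those of the ring and cap pooled. Dis3 (chr14:99075206-99099770), the 3′ to 5′ exonuclease and endonuclease bound to the exosome core, had a gene tail of 39.1 nt over 146 transcripts. The replicates gave 38.0 and 39.4 nt (mean 38.7 ± 1.05 nt), the smallest spread among the members beyond a quartile. Its median tail was 47 nt (37 to 60), with 39 nt (20 to 75) in replicate 1 and 48 nt (37 to 60) in replicate 2. Tails of 6 to 30 nt made up 42 of 146 transcripts (28.8%, 22.0% to 36.6%). Without the 9 tails of 1 to 5 nt, the gene tail was 49.0 nt. With all tails counted, it was 28.6 nt shorter than the median of genes of the same transcript length. Only 6.13% of all tested genes had a shorter gene tail.

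Transcripts of the 9 ring and cap subunits, Exosc1 to Exosc9, which form the inactive barrel that threads RNA to Dis3, had a median tail of 91 nt (84 to 99), with 93 nt (81 to 104) and 89.5 nt (82 to 100) in the replicates. In neither replicate did the interval of the ring and cap reach that of Dis3. Dis3 was named for its short tail, so this gap is a description, and it did not hold against every subunit. The cap subunit Exosc3 had a gene tail of 44.3 nt over 27 transcripts, with 73.3 nt over 7 transcripts in replicate 1 and 37.1 nt over 20 in replicate 2, below the 39.4 nt of Dis3 there. The other nuclease, Exosc10, had a gene tail of 77.4 nt, with 66.3 and 89.7 nt. Exosc4 (chr15:76327397-76330677) had the longest pooled gene tail of the complex, 87.9 nt over 67 transcripts, with 79.2 and 105 nt in the replicates. In replicate 1 Exosc1, Exosc2, Exosc7 and Exosc5 were above it. Exosc7 gave 86.0 and 85.2 nt over 100 transcripts. The median over 10 exosome genes was 72.9 nt, 3.49 nt below all genes, with 1.24 and -10.95 nt in the replicates (mean -4.85 ± 8.62 nt), a difference smaller than the replicate spread.

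Exosc6 had no transcript. Its single annotated exon of 1326 nt lies wholly within exons of Aars on the same strand, and Aars had 439 transcripts. How reads in the shared stretch were assigned was not tested. Most other overlaps were with genes on the opposite strand. The largest count there was 225 transcripts for Ccna2, which shares 510 exonic nt with Exosc9. Dis3 shares 325 exonic nt with Pibf1, which had 17 transcripts, and Xrn2, Pum2, Sympk and Ddx6 share none with another gene. Whether the counting used strand is not given in the sources used here, and reads of these pairs were taken as assigned.

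NMD factors had longer tails than the rest of the machinery when single transcripts were counted. Their 270 transcripts had a median tail of 108 nt (97 to 117), with 117 nt (99 to 138) in replicate 1 and 103 nt (92 to 115) in replicate 2, and each interval lay above the 91 nt of all nuclear transcripts. Tails over 90 nt made up 60.7% of them (54.8% to 66.4%), against 50.6% of all, and tails of 6 to 30 nt 4.81% (2.84% to 8.06%), against 8.25%. Tails of 1 to 5 nt, however, were also more frequent, with 5.93% against 2.32%. Of the 270 transcripts, 201 came from Upf2 and Upf3b.

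Upf2 (chr2:5951469-6056703), the adaptor between Upf1 and Upf3b, had a median tail of 104 nt (91 to 117) but a gene tail of 69.3 nt over 103 transcripts. The replicates gave 116 and 62.6 nt (mean 89.4 ± 38.0 nt), and all 7 of its tails of 1 to 5 nt were in replicate 2. Upf3b (chrX:37091678-37110322), which connects NMD to the exon junction complex, had 89.0 nt over 98 transcripts, with 93.2 and 88.2 nt (mean 90.7 ± 3.59 nt). Smg1, the kinase that phosphorylates Upf1, had a gene tail of 31.8 nt over 17 transcripts, of which 4 had 1 to 5 nt, all in replicate 2. Without these it was 92.4 nt. The helicase Upf1 had 103 nt over 10 transcripts and Smg5, which recruits decay enzymes to it, had 96.0 nt over 28. Over the 6 genes the median was 81.5 nt, 5.14 nt above all genes, with 15.3 nt (3 genes) and 11.4 nt (5 genes) in the replicates. Against genes of the same transcript length it was 9.39 nt above. The genes were evenly split, with 3 below the all-gene median and 3 above it. Of 3 genes covered by at least 10 transcripts per replicate, 2 were above the all-gene median in both (background 35.7%). None was below it in both (background 33.4%).

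**Figure D3:**
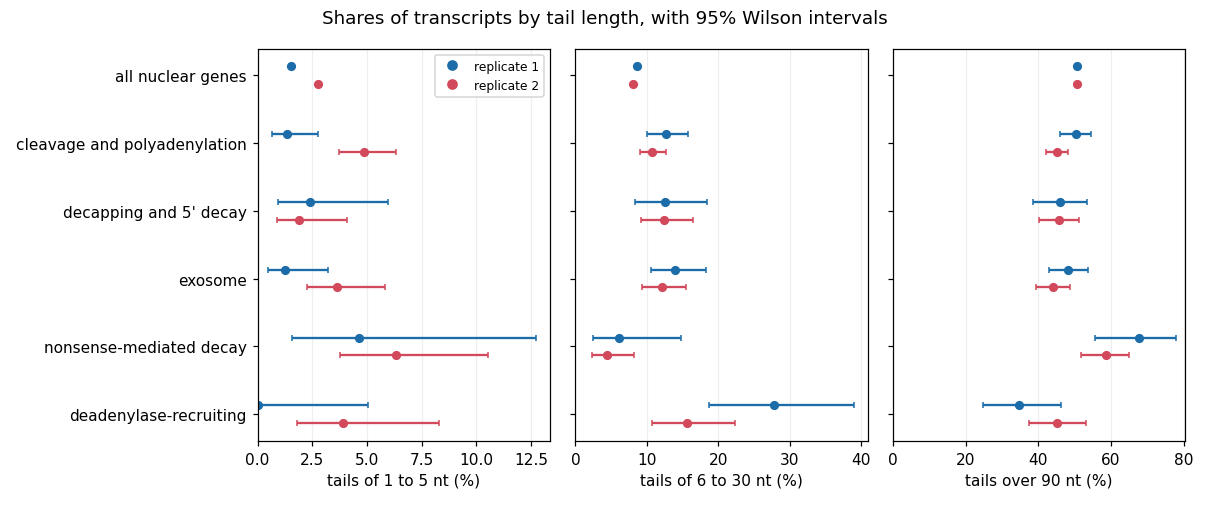
Share of transcripts (%) with tails of 1 to 5 nt, 6 to 30 nt and over 90 nt in all nuclear genes and in 5 functional groups, in replicate 1 (blue) and replicate 2 (red). Points are shares and bars 95% Wilson intervals; NMD factors have the highest share over 90 nt (67.7% and 58.5%) and deadenylase-recruiting factors the highest share of 6 to 30 nt (27.8% and 15.7%) in both replicates.

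The factors that recruit deadenylases had the lowest pooled median tail of the 5 larger groups. Their 225 transcripts had a median of 76 nt (64 to 85), with 74.5 nt (50 to 84) in replicate 1 and 81 nt (61 to 99) in replicate 2, where the exosome was lower at 80 nt. Tails of 6 to 30 nt made up 19.6% (14.9% to 25.2%), with 27.8% (18.8% to 39.1%) and 15.7% (10.8% to 22.3%) in the replicates, and in both the interval lay above the share of all nuclear transcripts. Tails of 1 to 5 nt were not in excess, with 2.67% against 2.32%. Of the 225 transcripts, 193 came from Pum2 and Zfp36l2, so these shares describe mainly that pair.

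Pum2 (chr12:8674134-8752581), a Pumilio protein that binds UGUA-containing motifs and recruits Ccr4-Not, had a gene tail of 52.1 nt over 105 transcripts. The replicates gave 50.3 and 52.9 nt (mean 51.6 ± 1.79 nt), both below the lower quartiles of 65.9 and 61.3 nt. Its median tail was 63 nt (50 to 84). The difference from all genes, -24.3 nt, was -12.4 nt with tails of at least 15 nt, -13.1 nt by the arithmetic mean and -15.6 nt against genes of like length. Zfp36l2 (chr17:84183931-84187947), which binds AU-rich elements, had 69.7 nt over 88 transcripts, with 61.5 and 74.4 nt (mean 68.0 ± 9.14 nt). Its tails were spread widely, as 18 of 88 (20.5%) had 6 to 30 nt and 45 of 88 (51.1%) had over 90 nt. Its paralog Zfp36l1 (chr12:80107754-80113013) had 61.9 nt over 13 transcripts, and the annotation holds a pseudogene copy of it, so its count is uncertain.

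The Btg and Tob proteins, which bind the deadenylases Cnot7 and Cnot8 directly, were barely covered. Btg1 (chr10:96617006-96622809) had 78.0 nt over 10 transcripts, 8 of them from replicate 2, and it too has pseudogene copies. Tob1 (chr11:94211454-94215495) had 5 transcripts of 14 to 45 nt with a median of 19 nt, and 3 of the 5 had 6 to 30 nt. Btg2 (chr1:134075170-134079120) had 2 transcripts of 29 and 83 nt and Tob2 (chr15:81848272-81858796) had 2 of 42 and 64 nt, all from replicate 1. None of the transcripts of Tob1, Btg2 and Tob2 had a tail over 90 nt, but such numbers allow no gene value. The median over the 4 recruiting genes with at least 10 transcripts was 65.8 nt, 10.6 nt below all genes, with -22.1 and -13.1 nt in the replicates, over 2 genes each (mean -17.6 ± 6.33 nt). With the median over transcripts the direction turned, to 2.75 nt above all genes.

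Terminal T residues were examined in the tails of 6 to 30 nt. They ended the tail in 64 of 400 such transcripts of the machinery (16.0%), with 19.6% and 13.6% in the replicates, against 15.2% of all nuclear transcripts, with 18.3% and 13.4%. The difference between genes was not tested, and the genes given here were picked by these values or by their number of such tails. They are not all of the genes at the ends, as Zfp36l1 had a terminal T in 2 of 3 such tails, both from replicate 2. Xrn2 had a terminal T in 13 of 30 tails (43.3%, 27.4% to 60.8%), 2 of 9 in replicate 1 and 11 of 21 in replicate 2, and Dis3 in 10 of 42 (23.8%, 13.5% to 38.5%), 4 of 15 and 6 of 27. The interval of Dis3 held the share of all nuclear transcripts, and Xrn2 in replicate 1 was near it. Papola had a terminal T in 2 of 36 tails (5.56%, 1.54% to 18.1%), both from replicate 1, and Upf2 in 0 of 11, where 3 counts would be 27.3%, so neither could be told from the background at this depth. The exosome ring and cap had it in 1 of 41 (2.44%, 0.432% to 12.6%). In tails over 30 nt the share was 1.95% in the machinery and 1.97% in all nuclear transcripts.

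Several of the Xrn2 tails with T were alike. The ending TTaaT was shared by 4 tails from replicate 2 that had 22 to 24 leading A, and 2 further sequences each occurred in 2 reads. The ending TaaaaT was shared by 4 Dis3 tails from replicate 2 with 20 to 25 leading A. With identical tails of a gene and replicate counted once, the share for Xrn2 was 37.0% (10 of 27, 21.5% to 55.8%) and that of all nuclear transcripts 13.8%. Whether such tails are copies of 1 molecule was not tested. Any base other than A was found in 11.02% of the machinery's tails and in 10.5% of all, with 13.3% and 9.82% against 12.2% and 9.55% in the replicates.

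Transcript length and gene tail were set side by side for the members. Across the 48 members the rank correlation of gene tail with longest annotated transcript was -0.164, and it was 0.103 with tails of 1 to 5 nt left out, against -0.390 and -0.287 across all genes. The difference between these correlations was not tested, and the values describe the 2 libraries. Sympk and Ddx6 had tails 47.7 and 47.0 nt longer than the median of genes of their length. Exosc3 was 49.6 nt, Papolg 41.5 nt, Pcf11 32.3 nt, Smg1 30.4 nt and Dis3 28.6 nt shorter, and the value of Smg1 rested on its 4 tails of 1 to 5 nt.

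**Figure D4:**
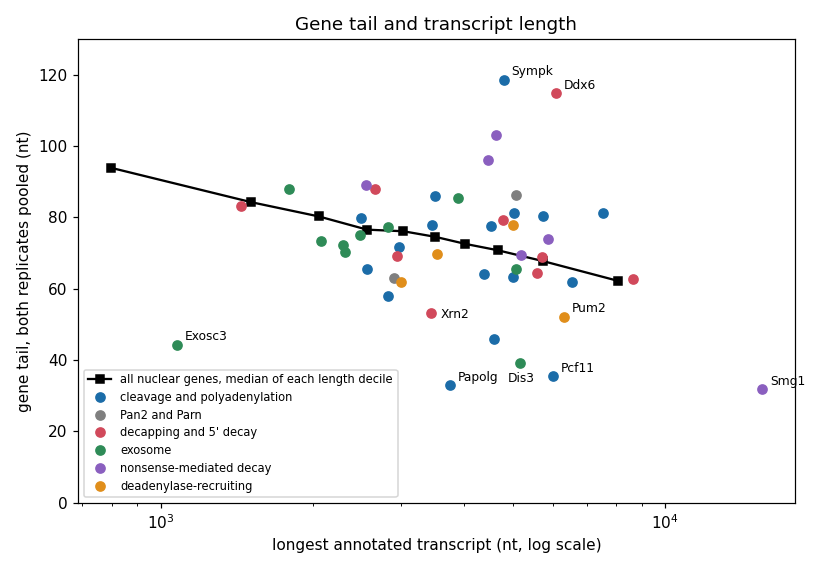
Gene tail in nt (y axis, both replicates pooled) against the longest annotated transcript in nt (x axis, log scale) for the 48 genes, coloured by group. Black squares are the median gene tail in each decile of transcript length over all nuclear genes, which falls from 93.9 to 62.2 nt; Sympk and Ddx6 lie far above this line, and Exosc3, Papolg, Pcf11, Smg1 and Dis3 far below it.

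Agreement between replicates set the limit for single genes. Across the 36 members covered by at least 10 transcripts per replicate, the rank correlation of the replicates was 0.325 and the median absolute difference 15.9 nt, against 0.536 and 10.4 nt for 4286 genes in all. With at least 30 transcripts in each, the correlation was 0.600 and the difference 5.96 nt over 14 members, against 0.715 and 6.71 nt over 1775 genes. Values on fewer transcripts, such as those of Papolg, Smg1 or Upf1, are therefore less certain than those of Dis3, Pum2, Xrn2 or Papola.

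Further genes of the same pathways were taken from fixed lists. Of 99 further genes listed under the same 6 functions, 69 had at least 10 transcripts, and their median gene tail was 72.7 nt, beside 72.0 nt for the members. The lists behind this value differed. The 9 further decapping genes that reached 10 transcripts had a median of 98.7 nt, 22.3 nt above all genes, with 3.14 and 23.3 nt in the replicates. This was on the other side from the decapping members. The genes were nearly evenly split, with 4 below the all-gene median and 5 above it, beside 5 and 4 of the decapping members. The further NMD genes were 5.90 nt above all genes in replicate 1 and at -7.02 nt in replicate 2. For 49 of the 69 further genes both replicates held at least 10 transcripts. Of these, 19 were below the all-gene median in both (background 33.4%) and 12 above it in both (background 35.7%). Of 11 genes listed as exosome cofactors and alternative nucleases, 6 were below in both replicates and 2 above, beside the same background shares. This list, and so the further genes as a whole, holds Mpp6, which is not an exosome cofactor. The cofactor of like name, Mphosph6, is listed as well. Mpp6 changed sides between replicates, with 79.6 and 68.1 nt. Dis3l, the cytoplasmic paralog of Dis3, had 56.8 nt, with 49.8 and 61.1 nt, and Zcchc8, of the nuclear exosome targeting complex, had 50.6 nt, with 47.9 and 51.3 nt. Lsm2, Lsm4 and Lsm6, of the Lsm ring, had 107, 102 and 98.7 nt and were above the upper quartile in both replicates, while Lsm14b had 66.3 and 118 nt in the replicates and Lsm10, of the histone mRNA machinery, had 73.9 nt over 11 transcripts. The decapping coactivators Pnrc1 and Pnrc2, at 35.5 and 43.5 nt, were below the lower quartile in both.

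Ccr4-Not and the poly(A)-binding proteins were nearest in function. Over the 9 Ccr4-Not genes that reached 10 transcripts the median was 70.0 nt, with 7 of them below the all-gene median, and the scaffold Cnot1 had 50.3 nt, with 66.0 and 44.9 nt. Cnot8 itself had 74.5 nt over 115 transcripts, with 64.3 and 79.7 nt. The 7 genes of poly(A)-binding proteins and their partners had a median of 70.7 nt, with Pabpc1 at 72.3 nt. With the replicates pooled, these medians lay 2.02 and 1.26 nt below that of the decay and 3′ processing genes. In replicates 1 and 2 the members had medians of 73.5 and 67.9 nt. Ccr4-Not had 68.1 and 69.1 nt, below the members in replicate 1 and above them in replicate 2. The poly(A)-binding genes had 76.6 and 70.4 nt, above the members in both, so neither pooled gap kept its direction.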

How the data were processed

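The authors made circular consensus reads with ccs, split them by barcode, aligned them to mm10 with minimap2 2.17, took the clipped 3′ bases as the tail and assigned genes with featureCounts 2.0.1; tools with a version here come from the submitters' processing notes. The authors' deposited table gives, for each of 1013675 reads, base counts of the tail, the number of passes and the tail sequence, without normalization. The annotation version they used is not given in the sources used here.

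Tail length was the number of tail bases, other bases included. Reads with at least 7 passes and nuclear genes of GENCODE vM21 (12955 of 12962 identifiers found) were kept, no pseudocount was used, and genes needed at least 10 transcripts. Shares have 95% Wilson intervals and medians exact order-statistic intervals. The members and all gene lists were chosen with earlier results of these data known. Named in full were, per group, the members with the longest and shortest gene tail among those with at least 30 transcripts and the one with the most transcripts, all beyond a quartile in both replicates, and all deadenylase-recruiting and other deadenylase genes; any further gene was named after its values were seen. Alternatives changed passes, tail minimum, summary, transcript minimum, reference genes and replicates, and collapsed identical tails, the last chosen after seeing the data. Scripts (Python 3.11.15, pandas 2.3.3, scipy 1.17.1) were tested on simulated data.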

Additional observations from a re-analysis of the deposited data

Results flagged for a closer look

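Reads with fewer than 7 passes were not used above. They made up 7.64% of the reads of the decay and 3′ processing genes (280 of 3666, 95% Wilson interval 6.82% to 8.54%) and 6.84% of the reads of all nuclear genes. They were listed because the share in the members was above the 0.0818% that a count of 0 allows. The share over all nuclear genes was above that limit too, so the listing is not particular to the members. In the members these reads had a median tail of 88 nt and 4.64% had 1 to 5 nt, against 90 nt and 2.21% over all nuclear genes.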

How the results depend on the processing

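No paired analysis was possible because the study arm held a single group. Each group's difference from the all-gene median was recomputed under 15 alternatives. The cleavage and NMD groups kept their direction in all 15, the exosome changed sign in 3 (to 0.0505 nt with tails of at least 15 nt, 3.50 nt with the median over transcripts and 1.24 nt without replicate 2), and all members, the decapping group and the recruiting group in 1 each. Leaving out either replicate gave -8.89 to -4.51 nt for all members, -11.7 to -3.41 nt for the cleavage group, -12.7 to -7.69 nt for decapping, 11.4 to 15.3 nt for NMD and -22.1 to -13.1 nt for recruiting factors. The decapping value was -2.63 nt with no pass filter, -3.46 nt with tails of at least 6 nt, -2.35, -2.19 and -2.999 nt with at least 20, 5 or 10 (in each replicate) transcripts, and 0.640 nt against genes of like transcript length. The NMD value was 19.2 and 17.3 nt with tails of at least 6 or 15 nt, 13.7 and 23.8 nt with the arithmetic mean or median over transcripts, 12.4 and 11.8 nt with at least 20 or 10 (in each replicate) transcripts, 9.39 nt against genes of like length, and 13.5 nt with identical tails counted once. The recruiting value was -20.0 nt from reads of at least 15 passes and 2.75 nt by the median over transcripts. All members gave 1.5 nt with the median over transcripts and -1.26 nt against genes of like length. With tails of at least 6 nt, all members gave -1.65 nt, the cleavage group -1.45 nt and the exosome -0.703 nt. The 27 genes below 75 nt became 18 and 14 with tails of at least 6 or 15 nt, 4 with the arithmetic mean and 10 with the median. Tails over 90 nt became 49.8% with tails of at least 15 nt. Of 7 single genes beyond a quartile, 6 kept their direction in all 15 alternatives, though with tails of at least 15 nt Pcf11 moved from -41.0 to -10.9 nt and Pum2 from -24.3 to -12.4 nt, and Cpsf6 changed it in 1, to 0.148 nt with tails of at least 6 nt. The causes were not tested. Depth limits genes with few transcripts, and the reference by protein-coding genes was not run for counts.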

Other observations

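Tails with a base other than A offer a check on repeated molecules, since tails made of A alone can match by chance. Of 373 such tails of the decay and 3′ processing genes, 14 (3.75%) had the same sequence as another read of the same gene and replicate, against 3728 of 73442 (5.08%) over all nuclear genes. Among tails with at least 2 such bases, 12 of 100 did so in the members and 1361 of 18824 in all nuclear genes. Xrn2 held 6 of the 14, all from replicate 2, and Dis3, Pum2, Smg6 and Zfp36l1 held 2 each.

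The share of a gene's transcripts that came from replicate 2 was not the same for all members. Replicate 2 gave 82 of 98 Upf3b transcripts (83.7%, 95% Wilson interval 75.1% to 89.7%) and 86 of 103 Upf2 transcripts (83.5%, 75.1% to 89.4%). It gave 17 of 47 for Exosc1 (36.2%, 24.0% to 50.5%) and 25 of 67 for Exosc4 (37.3%, 26.7% to 49.3%). Over the members as a whole it gave 2221 of 3386. With 2 libraries, whether these splits come from the cultures or from the libraries was not tested.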
